A study of Mus musculus with 6 samples.

Results

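Chemokines are small secreted proteins that attract leukocytes along a concentration gradient. In the mouse stomach several of them come from the epithelium itself, and where YAP and active chromatin lie at their genes in a YAP-driven tumor was examined here. The genes described here are the protein-coding genes whose symbol is Ccl, Cxcl, Xcl or Cx3cl followed by a number and at most 1 letter. The annotation lists 39 such genes, and 38 of them have a position on a main chromosome, out of 21779 placed protein-coding genes. Ccl21c is listed at chromosome 4, 59769 to 60899, inside the first 3 Mb of the chromosome, where no library had a summit, so it was counted as a member but could take no summit. Cxcl11 is annotated as a transcribed pseudogene and is not a member.

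The ligands act through G protein-coupled receptors on leukocytes. CXC ligands with a glutamate-leucine-arginine motif, such as Cxcl1, Cxcl2, Cxcl3 and Cxcl5, draw neutrophils through Cxcr2, Cxcl9 and Cxcl10 draw activated T cells through Cxcr3, and many CC ligands draw monocytes, eosinophils or lymphocytes. Many of these genes are switched on by NF-κB or by interferon signals, while others, such as Cxcl12 or Ccl21a, are made steadily and guide cells at rest.

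The 6 chromatin immunoprecipitation libraries came from EDTA-released epithelial cells of the mouse gastric corpus, fixed and frozen without culture. Tumor mice had the genotype CluCreERT2;R26rtTA;HA-Yap+, an HA-tagged Yap allele under a doxycycline-dependent transactivator, started by a tamoxifen-dependent Cre at Clu, so the model depends on the cells that express Clu. Normal mice were WT, and the labels give both groups the same regime of 2 mg tamoxifen on each of 5 days followed by DOX food for 14 days. YAP was profiled in 2 libraries labelled tumor and 2 labelled normal. H3K27ac, the acetylated histone found at promoters and enhancers in use, was profiled in 1 tumor and 1 normal library. Nothing in the labels says that libraries came from separate animals, so a spread between them may be technical.

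Each library is a list of peak summits, 1 bp wide, with a score given by the authors, a −log10 p-value or −log10 q-value (which of them is not stated). The lists held 38268 and 53904 YAP summits in tumor 1 and tumor 2, against 1654 and 2141 in normal 1 and normal 2, and 66896 H3K27ac summits in the tumor library, against 22574 in the normal library. Sequencing depth is unknown. The peak names inside the files contradict the labels of 2 YAP libraries: those of normal 2 carry the Clu_Yap tag of the tumor H3K27ac file, and those of tumor 1 the cre tag of the normal H3K27ac file. Values are therefore given per library, and tumor 2 and normal 1 are the pair without this conflict. Each summit was assigned to the protein-coding gene whose start or end was nearest, within 50 kb. A YAP site of both tumor libraries, called a tumor site below, is a pair of summits of tumor 1 and tumor 2 within 200 bp, placed at its midpoint.

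A YAP or H3K27ac summit lay between 250 bases before and 50 after the transcript start of 10 ligand genes with a promoter entry. The promoters of 6 of them are shown, chosen with their motifs known, for the neighbours Cxcl1, Cxcl2 and Cxcl3 and for the summits at Cx3cl1, Cxcl10 and Ccl20. The other 4, Ccl21b, Ccl28, Cxcl12 and Cxcl15, had no NF-κB, TEAD, AP-1 or IRF match. Each is the stretch of 250 bases before the transcript start (RefSeq, GRCm38.p6), written 5′ to 3′ on the gene's strand. The intervals are chr5:90890995-90891244 for Cxcl1, chr5:90903649-90903898 for Cxcl2, chr5:90785851-90786100 for Cxcl3, chr8:94771930-94772179 for Cx3cl1 and chr1:83116516-83116765 for Ccl20, all on the plus strand, and chr5:92348890-92349139 for Cxcl10 on the minus strand. Capitals mark matches on either strand to the TEAD motif GGAATG, the AP-1 motif TGANTCA, the NF-κB motif, the IRF motif or TATAAA, with overlapping matches joined.
Cxcl1: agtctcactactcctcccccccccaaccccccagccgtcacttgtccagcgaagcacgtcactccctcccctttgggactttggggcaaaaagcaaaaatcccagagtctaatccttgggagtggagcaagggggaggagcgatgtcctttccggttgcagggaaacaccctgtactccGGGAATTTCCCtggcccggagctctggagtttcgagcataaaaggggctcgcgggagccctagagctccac
Cxcl2: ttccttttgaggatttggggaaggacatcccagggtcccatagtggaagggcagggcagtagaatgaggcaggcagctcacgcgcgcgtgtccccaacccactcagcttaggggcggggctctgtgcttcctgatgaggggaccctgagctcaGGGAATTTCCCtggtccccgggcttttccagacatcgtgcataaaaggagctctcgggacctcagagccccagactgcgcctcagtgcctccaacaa
Cxcl3: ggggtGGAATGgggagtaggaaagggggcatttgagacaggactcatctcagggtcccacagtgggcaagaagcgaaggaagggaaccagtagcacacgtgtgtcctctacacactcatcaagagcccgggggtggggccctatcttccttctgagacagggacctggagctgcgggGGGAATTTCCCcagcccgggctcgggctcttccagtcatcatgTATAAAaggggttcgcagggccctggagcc
Cx3cl1: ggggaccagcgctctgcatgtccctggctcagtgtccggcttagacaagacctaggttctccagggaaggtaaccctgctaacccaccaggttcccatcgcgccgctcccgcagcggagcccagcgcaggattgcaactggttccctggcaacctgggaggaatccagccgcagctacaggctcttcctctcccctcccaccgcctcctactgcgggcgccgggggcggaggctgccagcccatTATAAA
Cxcl10: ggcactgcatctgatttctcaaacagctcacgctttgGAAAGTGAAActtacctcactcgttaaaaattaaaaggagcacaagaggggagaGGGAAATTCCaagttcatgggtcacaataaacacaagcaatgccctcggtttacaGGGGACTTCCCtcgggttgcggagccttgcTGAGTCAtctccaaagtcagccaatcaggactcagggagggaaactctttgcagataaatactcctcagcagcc
Ccl20: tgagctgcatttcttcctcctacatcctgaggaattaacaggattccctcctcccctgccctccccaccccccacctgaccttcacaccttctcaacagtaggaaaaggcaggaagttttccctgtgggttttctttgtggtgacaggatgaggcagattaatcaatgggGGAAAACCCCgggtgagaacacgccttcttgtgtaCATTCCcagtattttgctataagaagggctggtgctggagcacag

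The 3 neighbouring promoters of Cxcl1, Cxcl2 and Cxcl3 held the same run of overlapping NF-κB matches, GGGAATTTCCC. With -1 as the last base before the transcript start, it spanned -71 to -61 at Cxcl1, -97 to -87 at Cxcl2 and -73 to -63 at Cxcl3. Cxcl10 had NF-κB matches in 2 places, an IRF match at -213 to -204 and an AP-1 match at -74 to -68. Ccl20 had an NF-κB match at -80 to -71 and a TEAD match, CATTCC on the printed strand, at -45 to -40. Cxcl3 also had a TEAD match, at -245 to -240. No motif of the TEAD or AP-1 kind was found in the printed stretches of Cxcl1, Cxcl2 and Cx3cl1, which says only that these letters are not in these windows.

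Over all members, 28 of 39 genes had a promoter entry, giving 34 windows of 250 bases. Those without an entry were Cxcl5, Cxcl16, Cxcl17, Ccl2, Ccl4, Ccl5, Ccl7, Ccl11, Ccl21c, Ccl24 and Ccl26. The NF-κB motif was in 7 of the 34 windows (20.6%), against 7.25% of 32851 promoter windows of all genes. The TEAD motif was in 4 (11.8%), against 12.6% of all windows, and the AP-1 motif also in 4 (11.8%), against 6.75%. The IRF motif was in 3 (8.82%, against 2.98%) and TATAAA in 10 (29.4%, against 12.4%). These are descriptions of letters, not of bound sites.

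YAP binding was asked about first. Tumor sites lay at 17 of the 38 placed ligand genes (44.7%), against 60.3% of all placed protein-coding genes, and they numbered 26. The median ligand gene had 0 tumor sites and the median gene of the genome 1. Ligand genes are short and crowded: the stretch of DNA nearest to their ends had a median of 37.7 kb, against 46.5 kb for all genes, and per 100 kb of it they had 1.5 tumor sites, against 1.90 for all genes. In tumor 2 alone 26 of 38 genes had a summit (background 71.1%), and in tumor 1 alone 20 of 38 (background 66.6%). No ligand gene had a site of both normal libraries (background 0.955%).

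Genes with a tumor site were counted in each functional class, beside the background of 60.3% over all genes. Of the 12 epithelial chemokines, genes chosen because epithelia are known to express them, 10 had a tumor site (83.3%). Together they held 16 of the 26 sites, 2.97 per 100 kb, against 1.90 for all genes. Of the 16, Ccl28 held 5 and Cx3cl1 held 3, and the median was 1 site per gene, as over all genes. A tumor site within 1 kb of a gene end was found at 4 of the 12 (background 41.6%). Of the 11 genes of the inflammatory CC cluster, ligands mostly of myeloid and lymphoid cells, 1 had a tumor site (9.09%), 0.258 per 100 kb. The pair of interferon-inducible genes, Cxcl9 and Cxcl10, had 0. Of 7 other homeostatic and type 2 ligands 3 had one (42.9%), and of the 6 placed genes of the copy-variable cluster 3 (50%). With tumor 2 alone, whose label is not in conflict, genes with a summit were counted beside a background of 71.1%. They were 12 of 12 epithelial, 5 of 11 CC cluster, 1 of 2 interferon-inducible, 4 of 7 other and 4 of 6 copy-variable genes. The lists were chosen with earlier results of these data known, and no test was made between them.

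**Figure D1:**
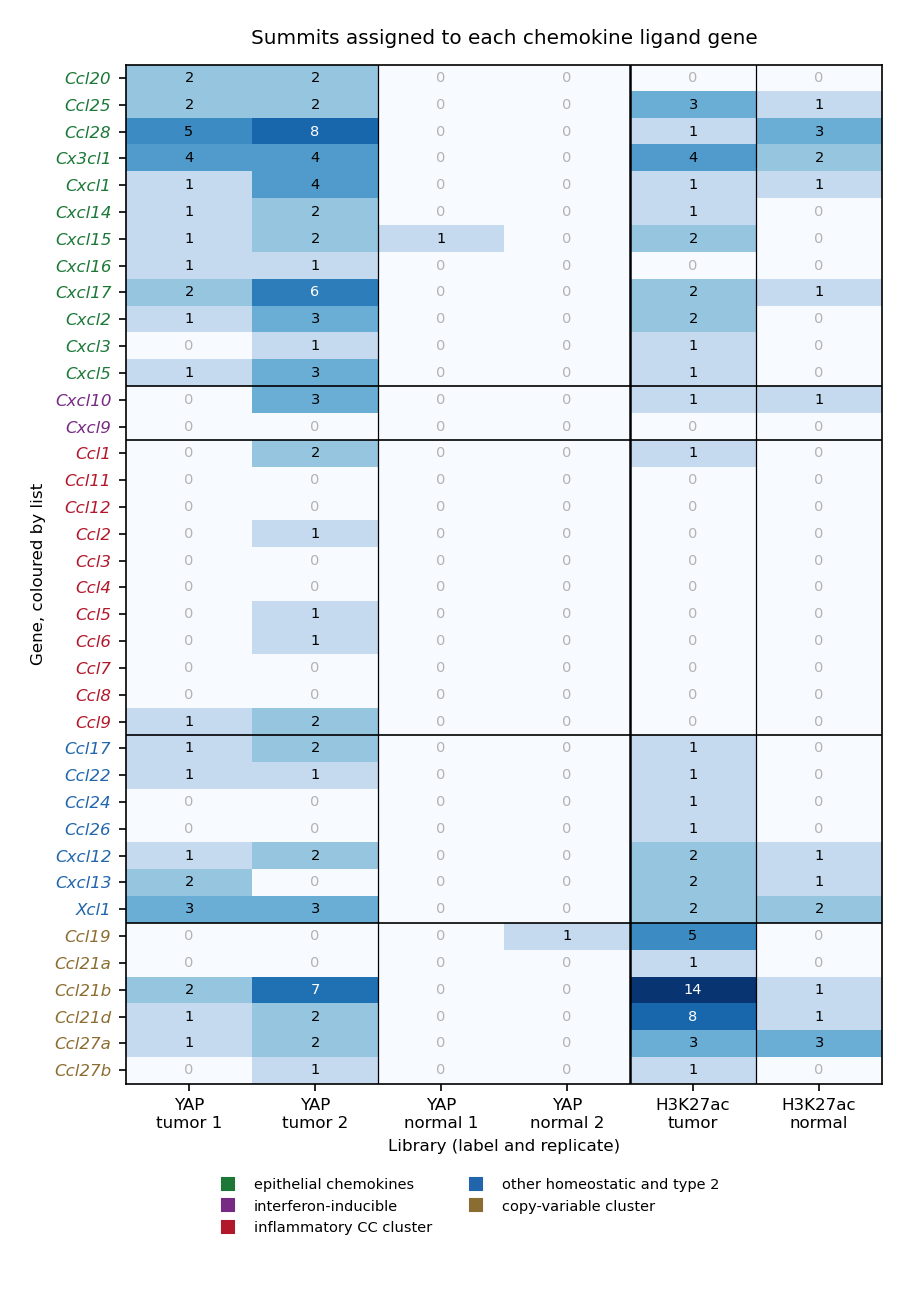
Number of summits assigned to each of the 38 placed chemokine ligand genes (rows, coloured by list) in each of the 6 libraries (columns). Shading follows log2 of the count plus 1. The YAP counts of the epithelial genes are between 0 and 8 in the tumor libraries, while both normal YAP columns hold a single summit each, and the H3K27ac column of the tumor library peaks at Ccl21b with 14.

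Between the groups of libraries, YAP summits at ligand genes numbered 34 in tumor 1 and 68 in tumor 2, against 1 in normal 1 and 1 in normal 2. The tumor libraries averaged 51.0 ± 24.0 summits and the normal libraries 1.0 ± 0 (SD, n = 2 each). Both tumor counts were above both normal counts, a 24.6-fold ratio of the geometric means of summits plus 1, or 4.62 on the log2 scale. By an exact permutation test, two-sided, p was 0.333, and no smaller p is possible with 2 libraries in each group. Grouped by the tags in the peak names instead of the labels, the log2 difference was 0.49 (exact permutation p = 1.0, n = 2 each), and between the uncontested libraries, tumor 2 and normal 1, it was 5.11, with no test possible for 1 against 1. The summed counts of 102 and 2 had a ratio of 51.0 with an exact 95% counting interval of 13.8 to 427. This interval covers counting error only and leaves out the spread between libraries and the difference in list length. It also treats summits as independent, although each of the 26 tumor sites was counted in both tumor libraries.

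The lists also differed in length. As a share of each list, summits at ligand genes made up 0.0888% in tumor 1 and 0.126% in tumor 2, against 0.0605% in normal 1 and 0.0467% in normal 2. The Wilson 95% intervals were 0.0636 to 0.124% and 0.0995 to 0.1599% for the tumor libraries, and 0.0107 to 0.342% and 0.00825 to 0.264% for the normal libraries, so the counting intervals overlapped, although both tumor shares were above both normal shares. The difference of means was 0.0539 percentage points (exact permutation p = 0.333, n = 2 each). When every YAP list was shortened to the 1654 best-scored summits, the tumor libraries had 0 and 0 summits at ligand genes and the normal libraries 1 and 0, since the best member summit ranked 4721 in tumor 1 and 5345 in tumor 2. Per gene, 18 of 38 members had more summits in each tumor library than in either normal library (background 61.7%).

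The normal libraries had 1 summit each at ligand genes, at 1 of 38 genes (background 2.80% in normal 1 and 6.01% in normal 2). In normal 1 it lay 25133 bp beyond Cxcl15, which encodes lungkine, a neutrophil attractant of mouse lung, and in normal 2 it lay 40188 bp from Ccl19, which encodes a ligand that guides dendritic and T cells to lymph nodes. None of the 26 tumor sites at ligand genes had a normal YAP summit within 1 kb, against 4.30% of the 25076 tumor sites assigned to any gene.

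Neutrophil attractants of the CXC family lie together on chromosome 5. Cxcl1 (90891245 to 90893121), which encodes a main neutrophil attractant of the mouse, carried the tumor site closest to a gene end of all 26. Its site at position 90891226 lay 19 bp before the transcript start, with scores of 9.13 in tumor 1 and 26.9 in tumor 2. In tumor 1 the summit lay 110 bp before the start, within the printed stretch, and in tumor 2 it lay 72 bp after it. H3K27ac summits were 140 bp away in the tumor library and 82 bp away in the normal library, so the Cxcl1 start was marked in both tissues. These summits ranked at 12.9% of the tumor list and 53.8% of the normal list, so a summit in both does not say that the mark was equal.

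Cxcl1 had 1 and 4 YAP summits in tumor 1 and tumor 2, against 0 and 0 in the normal libraries. Of the 3 further tumor 2 summits, those 9457 and 14986 bp from the gene and the one 40733 bp from it had no partner in tumor 1. Cxcl2, another neutrophil attractant, had 1 and 3 YAP summits in the tumor libraries, against 0 and 0 in the normal ones. Its tumor site lay 5268 bp after the transcript start and 924 bp from a tumor H3K27ac summit, while the nearest normal H3K27ac summit was 17859 bp away. A tumor H3K27ac summit also lay 12 bp before the start of Cxcl2, and the normal library had 0 summits at this gene.

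Cxcl5, whose product attracts neutrophils in inflamed mucosa, had its tumor site 251 bp inside one end of the gene, 7 bp from a tumor H3K27ac summit. The closest normal H3K27ac summit was 118251 bp away. The site was weak in tumor 1, with a score of 3.22 and a rank of 92.4% of that list, and of middle rank in tumor 2 (47.9%). Cxcl3 had 0 YAP summits in tumor 1 and 1 in tumor 2, 302 bp before its transcript start with a score of 14.8. A tumor H3K27ac summit lay 25 bp after that start, and there was none in the normal library. At Cxcl15 the best pair of tumor summits was 202 bp apart, just over the limit of 200 bp, whereas the widest pair counted, at Cxcl1, was 182 bp apart.

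Across the whole stretch from 140 kb before the Cxcl1 start to 25 kb after it, the tumor H3K27ac library had 8 summits and the normal library 1. YAP summits there numbered 4 in tumor 1 and 13 in tumor 2, against 1 in normal 1. At equal list length, that is with the 22574 best-scored tumor H3K27ac summits, Cxcl1 and Cxcl15 kept 1 each and Cxcl2, Cxcl3 and Cxcl5 had 0.

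**Figure D2:**
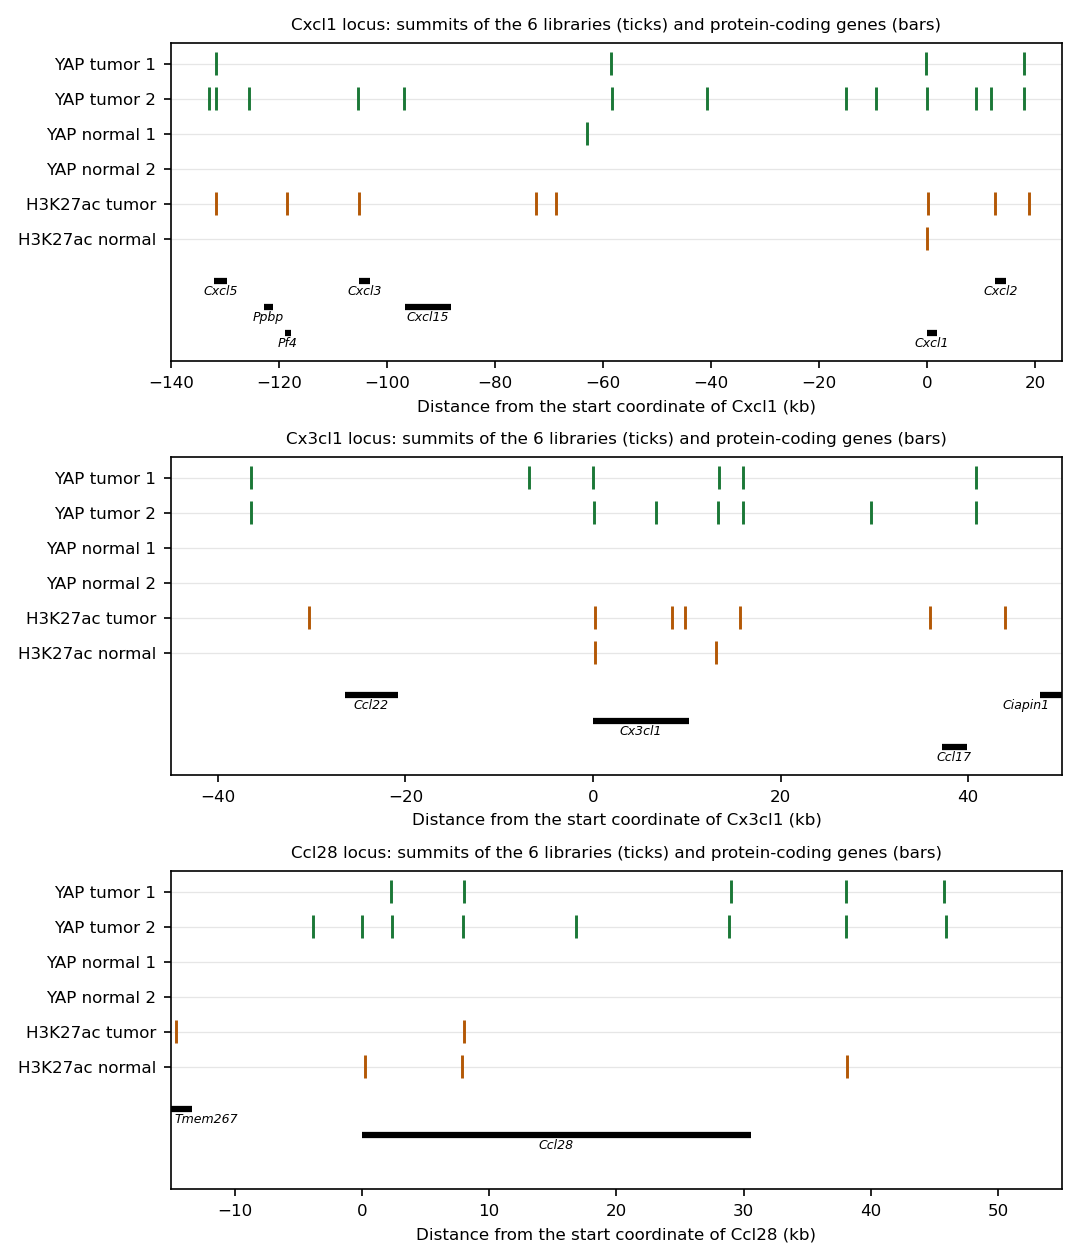
Summits of the 6 libraries (ticks, 1 row per library) and protein-coding genes (black bars) around Cxcl1, Cx3cl1 and Ccl28, in kb from the start coordinate of each gene. At Cxcl1 the window holds 8 tumor H3K27ac summits and 1 normal summit, whereas at Ccl28 it holds 2 tumor and 3 normal summits. Full lists are drawn, 66896 tumor and 22574 normal H3K27ac summits. At equal list length the Cxcl1 window keeps 1 tumor H3K27ac summit each at Cxcl1 and Cxcl15.

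Cx3cl1 (chromosome 8, 94772180 to 94782427) encodes fractalkine, a ligand that is anchored in the membrane by a mucin stalk and read by Cx3cr1 on monocytes. It had 4 and 4 YAP summits in tumor 1 and tumor 2, against 0 and 0 in the normal libraries, and 3 tumor sites. The best of them, at position 94772231, lay 51 bp after the transcript start, with scores of 11.4 in tumor 1 and 25.3 in tumor 2. The tumor 1 summit lay 32 bp before the start. Tumor and normal H3K27ac summits were 110 and 153 bp away and ranked at 12.5% and 63.9% of their lists. The other two lay 13399 and 16005 bp after the start, beyond the gene. Of these, the one at 13399 bp had a normal H3K27ac summit 250 bp away and no tumor one within 1 kb. The one at 16005 bp had a tumor H3K27ac summit 378 bp away and no normal one within 1 kb.

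Its neighbours Ccl17 and Ccl22 had 1 tumor site each. Ccl17, whose product draws Th2 cells and regulatory T cells, had 1 tumor site, 969 bp beyond the gene, with 1 and 2 YAP summits in the tumor libraries, against 0 and 0 in the normal ones. Ccl22, which shares its receptor Ccr4 with Ccl17, had 1 tumor site 9939 bp before its start at ranks of 75.5% and 67.9% of the lists. At each of these 2 genes the full tumor H3K27ac list had 1 summit and the normal list 0, and at equal length both had 0.

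Ccl28 (chromosome 13, 119623819 to 119654359), which encodes a mucosal chemokine that draws IgA-producing plasma cells through Ccr10, had the most tumor sites of all members, 5. Its YAP summits numbered 5 in tumor 1 and 8 in tumor 2, against 0 and 0 in the normal libraries. The strongest tumor site, at position 119631829 and 8010 bp inside the gene, scored 19.6 and 21.8, and lay 6 bp from a tumor and 143 bp from a normal H3K27ac summit. H3K27ac summits were fewer in the tumor: 1 at Ccl28, against 3 in the normal library, and this held for the full tumor list as well. The 1 tumor summit ranked at 11.3% of its list, the best of all ligand gene summits in that library. The 3 normal summits ranked at 32.7, 49.4 and 89.0% of theirs, so the count does not say that the mark was weaker. The normal library had a summit 239 bp inside the gene start, whereas the tumor library had none nearer to the start than 8004 bp inside the gene. A further normal summit lay 99 bp from the tumor site at position 119661857, beyond the gene, whose nearest tumor H3K27ac summit was 28784 bp away.

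The other epithelial ligands with a tumor site were Cxcl16, Cxcl17, Ccl20, Ccl25 and Cxcl14. Cxcl16, a transmembrane ligand of Cxcr6 that also takes up oxidised lipoprotein, had 1 and 1 YAP summits in the tumor libraries, against 0 and 0 in the normal ones. Its tumor site lay 89 bp inside one end of the gene with scores of 9.73 and 20.1, and the nearest tumor and normal H3K27ac summits were 265 and 361 bp away but closer to another gene. Cxcl17, made by mucosal epithelia, had 2 and 6 YAP summits in the tumor libraries, against 0 and 0 in the normal ones, and its tumor site lay 11765 bp from the gene.

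Ccl20 attracts Ccr6-bearing lymphocytes and dendritic cells to epithelia, and its 2 and 2 YAP summits in the tumor libraries, against 0 and 0 in the normal ones, included 1 near the transcript start in each. They were 530 bp apart, 242 bp before the start in tumor 2 and 288 bp after it in tumor 1, and did not form a tumor site. The pair that did lay 16834 bp beyond the gene. Neither H3K27ac library had a summit at Ccl20. Ccl25, the gut ligand of Ccr9, had its tumor site 45105 bp from the gene, and Cxcl14 had one 8983 bp from it. At equal list length both genes had more tumor than normal H3K27ac summits: 2 at Ccl25, against 1 in the normal library, and 1 at Cxcl14, against 0. The 2 tumor summits at Ccl25 lay 19935 and 32623 bp beyond the gene, whereas the normal one lay 239 bp inside its start.

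**Figure D3:**
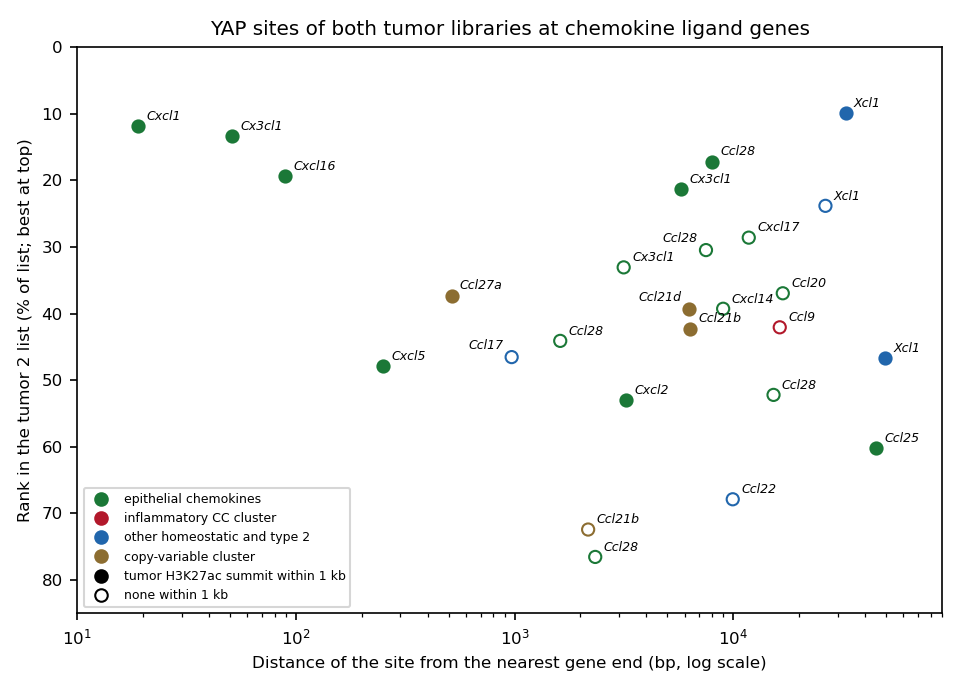
The 26 YAP sites of both tumor libraries at chemokine ligand genes, by distance from the nearest gene end (horizontal, bp, log scale) and rank in the tumor 2 list (vertical, percent of list, best at the top). Filled circles had a tumor H3K27ac summit within 1 kb; the sites of Cxcl1, Cx3cl1 and Cxcl16 lie within 100 bp of a gene end and rank between 11.9 and 19.4%.

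Outside the epithelial genes, Xcl1, the lymphotactin gene of T and NK cells, had 3 tumor sites, all far from the gene. They lay 32596, 26380 and 49567 bp from it, the last just inside the limit of 50 kb. The first ranked best of all member sites in tumor 2 (9.92% of the list) and lay 104 and 290 bp from tumor and normal H3K27ac summits. In the CC cluster on chromosome 11, which holds the monocyte attractants Ccl2 and Ccl7 and the eosinophil attractant Ccl11, the only tumor site lay 16304 bp from Ccl9, and no H3K27ac summit was within 50 kb of that site. Ccl1, Ccl2, Ccl5 and Ccl6 had 2, 1, 1 and 1 summits in tumor 2, against 0 in tumor 1 and in both normal libraries. Ccl3, Ccl4, Ccl7, Ccl8, Ccl11 and Ccl12 had none in any of the 6 libraries.

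Cxcl10, an interferon-inducible T cell attractant, had 0 YAP summits in tumor 1 and 3 in tumor 2, against 0 and 0 in the normal libraries. One of them lay 13 bp before the transcript start with a score of 13.5, within the stretch printed above. Its H3K27ac summits, 1 in each tissue, lay 4901 bp from the gene in the tumor and 4984 bp in the normal library. Cxcl9 had none in any library. Cxcl12, the stromal ligand of Cxcr4, had 1 and 2 YAP summits in the tumor libraries, against 0 and 0 in the normal ones, without a pair within 200 bp, the closest being 301 bp apart. Its start was marked by H3K27ac in both, 461 bp inside the gene in the tumor and 288 bp inside in the normal library. Cxcl13, the B cell attractant, had 2 summits in tumor 1 and 0 in tumor 2.

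As a set, tumor sites at ligand genes lay farther from gene ends and ranked lower than other tumor sites. Of the 26, 6 were within 1 kb of a gene end (23.1%, Wilson 95% interval 11.03 to 42.1), against 38.2% of the 25076 tumor sites assigned to any gene, and 7 (26.9%, 13.7 to 46.1) were inside a gene, against 54.0%. Their median distance was 6307 bp, against 3580 bp. Their median rank was 49.4% of the tumor 1 list and 39.3% of the tumor 2 list, against 39.7% and 28.4% for all assigned tumor sites. Members with a tumor site within 1 kb of an end were Cxcl1, Cx3cl1, Cxcl16, Cxcl5, Ccl27a and Ccl17, 6 of 38 (background 41.6%). Sites are not replicates, several share a gene, and these differences were not tested.

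Active chromatin at the sites was then compared, with the full tumor list of 66896 H3K27ac summits and the normal list of 22574. Of the 26 tumor sites, 13 (50.0%, 32.1 to 67.9) had a tumor H3K27ac summit within 1 kb and 9 (34.6%, 19.4 to 53.8) a normal one, against 56.7% and 51.0% of all assigned tumor sites. Both marks were near 7 sites (26.9%, against 44.9%), the tumor mark alone near 6 (23.1%, 11.03 to 42.1, against 11.8%), the normal mark alone near 2 (7.69%, against 6.09%), and neither near 11 (42.3%, against 37.2%). The 6 with the tumor mark alone were at Ccl21b, Ccl21d, Ccl25, Cx3cl1, Cxcl2 and Cxcl5. The tumor H3K27ac summits at these 6 sites ranked from 25883 to 50175. None was among the 22574 best-scored tumor summits, so at equal list length none of the 6 keeps its tumor mark. The sites at Ccl21b and Ccl21d lie at matching places of near-identical copies, as described below, and are not independent.

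The H3K27ac comparison has 1 library per group, so no test was made and there is no replicate check. At equal list length ligand genes had 23 summits in the tumor library, against 18 in the normal library, a log2 ratio of 0.34 on counts plus 1, with an exact 95% counting interval of -0.60 to 1.33 for the log2 ratio of the counts. Of the 38 genes, 8 had more in the tumor (background 16.5%) and 5 had fewer (background 20.6%). Of the remaining 25, 20 had no summit in either list and 5 had equal counts. The median log2 ratio was 0 for ligand genes and 0 for all genes. With the full tumor list there were 62 tumor summits at 25 genes (background 81.8%), against the same 18 at 12 genes (background 54.5%). Over all protein-coding genes the full tumor list had 50713 assigned summits, against 20101 in the normal library, and at equal length 17562, against 20101.

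Among the epithelial ligands the tumor had 7 summits at equal length, against 8 in the normal library. With the full tumor list they had 18, against 8. At equal length Ccl25, Cxcl14 and Cxcl15 had more in the tumor, and Ccl28, Cx3cl1 and Cxcl17 had fewer. Counts of summits do not say how strong the mark was. With the full list the direction turned at Cx3cl1, with 4, against 2, and at Cxcl17, with 2, against 1, but not at Ccl28. The eosinophil attractants Ccl24 and Ccl26 had 1 each in the tumor, against 0 in the normal library, without any YAP summit. A gene end marked within 1 kb was found at 8 of 38 ligand genes in the tumor (background 45.1%) and at 7 in the normal library (background 44.2%), and at 11 with the full tumor list (background 60.0%). Those marked in the full tumor list and not in the normal library were Ccl26, Ccl27b, Cxcl14, Cxcl2, Cxcl3 and Cxcl5, and those marked in the normal library alone were Ccl25 and Ccl28.

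**Figure D4:**
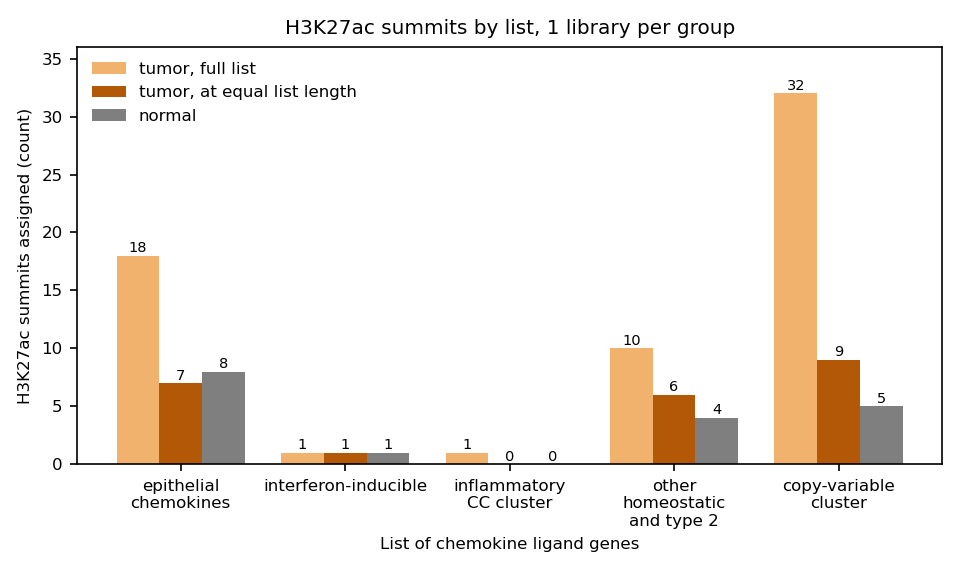
H3K27ac summits assigned to each list of chemokine ligand genes (bars, counts from 0; 1 library per group, so no error bars) in the full tumor list, in the tumor list shortened to 22574 summits and in the normal list. The full tumor count is highest in the copy-variable cluster, 32 against 5 in the normal library.

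The copy-variable cluster on chromosome 4 was kept apart. In mice this region holds several near-identical copies of Ccl21, the lymph node homing ligand, and of Ccl27, a skin ligand, so reads from one copy can be placed at another, and the sources used here do not give the authors' handling of such reads. The cluster held 32 of the 62 H3K27ac summits at ligand genes in the full tumor list, against 5 of 18 in the normal list. Ccl21b had 14, against 1, and Ccl21d had 8, against 1. The Ccl21b record spans 83706 bp, against 1131 bp for Ccl21d, so the 2 counts cover unlike stretches. At equal length the cluster had 9, against 5, with Ccl21b at 5, against 1, and Ccl19 at 2, against 0. Leaving this cluster out was decided with the values known. The remaining ligand genes had 14 summits at equal length, against 13, and 30 with the full tumor list, against 13.

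The tumor summits around Ccl21d and Ccl21b lay at matching places. The higher end of the Ccl21b record is 352082 bp from that of Ccl21d. Within 50 kb of these ends the tumor H3K27ac library had 12 summits at Ccl21d and 13 at Ccl21b, and 9 of the 12 had a partner at the same distance from the other end within 200 bp. One pair lay exactly 6221 bp beyond each end, at positions 41910964 and 42263046. The normal H3K27ac library had 2 and 1 summits there, with 1 such pair. For YAP, 2 of 3 summits of tumor 1 and 2 of 3 of tumor 2 at Ccl21d had a partner, and both normal libraries had 0 there. The tumor sites at position 41911044 near Ccl21d and 42263138 near Ccl21b are such a pair, 6301 and 6313 bp beyond the gene ends, so they cannot be counted as 2 independent observations. In the same stretch 4 tumor H3K27ac summits at Ccl21d followed each other at spacings of 2906, 2779 and 2931 bp.

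**Figure D5:**
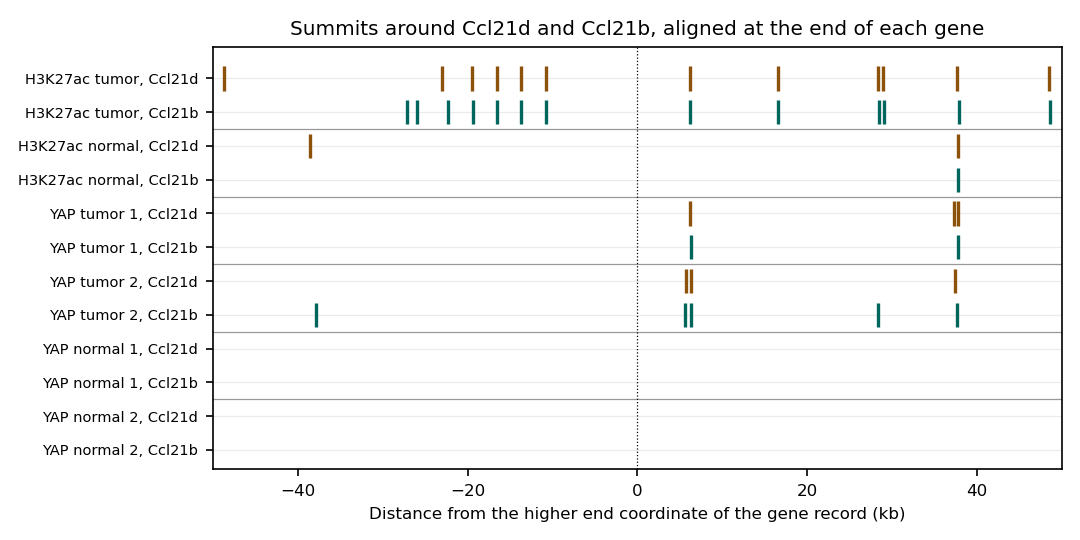
All summits within 50 kb of the higher end coordinate of Ccl21d (brown) and Ccl21b (green), aligned at that end, in kb, with 1 pair of rows per library. In the tumor H3K27ac library 9 of the 12 ticks at Ccl21d have a partner at Ccl21b, while both normal YAP libraries are empty.

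Ccl27a had 1 tumor site 515 bp inside the gene, 295 and 249 bp from tumor and normal H3K27ac summits, and 3 H3K27ac summits in the full tumor list, against 3 in the normal library (1, against 3, at equal length). Ccl19 had 0 YAP summits in both tumor libraries and Ccl21a also 0.

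Other genes of the chemokine system were counted from lists. Of 22 chemokine receptor genes, which are mostly expressed by leukocytes, 14 had a tumor site (background 60.3%). The best ranked were at Ccr1, Xcr1, Cx3cr1, Cxcr5, Ccr6 and Cxcr6, and Ccr1 was the 1 gene with a site of both normal libraries. The receptor genes had 37 H3K27ac summits in the full tumor list, against 11 in the normal library, and at equal length 4, against 11. The direction thus turned with the list length, as it did over all protein-coding genes (50713, against 20101, and at equal length 17562, against 20101). Of 18 genes of the NF-κB pathway, the regulator of many chemokine genes, 18 had a tumor site, with the best at Nfkbiz, Nfkbib, Traf2, Tnfaip3, Rel and Map3k14. Their gene ends carried H3K27ac in 17 of 18 cases in the tumor at equal length (background 45.1%) and in 16 in the normal library (background 44.2%). They had 54 H3K27ac summits in the full tumor list, against 36 in the normal library, and at equal length 25, against 36. At equal length 10 of the 18 had fewer summits in the tumor (background 20.6%) and 2 had more (background 16.5%).

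The labelled tissue was checked with markers. A tumor site was found at 8 of 8 epithelial markers, 5 of 8 stromal and endothelial markers (62.5%) and 3 of 10 immune markers, against a background of 60.3%. H3K27ac lay at a gene end of 7 epithelial markers in the full tumor list (background 60.0%) and of 8 in the normal library (background 44.2%). The epithelial markers had 43 H3K27ac summits in the full tumor list, against 39 in the normal library, and at equal length 21, against 39. Of 10 immune markers, 2 had H3K27ac at an end in the full tumor list and 1 in the normal list. They had 11 H3K27ac summits in the full tumor list, against 5 in the normal library, and at equal length 5, against 5. Cd3e, Cd8a, Cd79a and Cd68 were among those with 0 in both libraries. Those with summits were Spi1 with 5 in the full tumor list, against 2 in the normal library, Itgam with 3, against 2, Ptprc with 1, against 1, and Ly6g and Csf1r with 1 each, against 0. Spi1, a myeloid transcription factor gene, also had 3 tumor sites, the best at rank 2636 in tumor 1 and 1723 in tumor 2, Itgam had 2 and Cd3e had 1. The 8 stromal and endothelial markers had 34 summits in the full tumor list, against 10, and at equal length 3, against 10. Over all protein-coding genes the direction of the H3K27ac totals also turned at equal length, as given above. In bulk samples a change in cell makeup and a change per cell cannot be told apart, and the part of such cells in the counts at ligand genes was not tested.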

How the data were processed

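The 6 deposited summit lists were used as the authors left them. Bowtie2, MACS2 and the build GRCm38 (mm10) are named in the submitters' processing notes, and the libraries were read as 50 bp pairs per the labels' protocols. Not given in the sources used here were versions, thresholds, any control and the handling of reads matching several places. Each deposited score is the authors' −log10 p-value or −log10 q-value, and served to rank and filter a list's own summits. The lists were called per sample, and depth is unknown.

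Summits outside the main chromosomes (1 to 19, X, Y) were dropped and the others assigned with Python 3.11.15, numpy 2.4.6 and pandas 2.3.3 to genes of a RefSeq table of the same build, and 121 of its 21900 protein-coding genes whose listed positions fall in the opening 3 Mb of a chromosome other than Y were left out. The assignment and the matching were tested on simulated data. Transcript starts, strands and promoter sequences came from RefSeq (GRCm38.p6). The YAP groups were compared with exact two-sided permutation tests over the 2 libraries of each group, on log2 of summits plus 1 and on the percent of each list, and the single H3K27ac libraries without a test. Intervals (scipy 1.17.1) cover counting error only. No summit of 1 YAP replicate shared position and score with its partner list. The members, the lists and the alternatives were chosen with earlier results of these data known. All members could be named, and of the receptor and NF-κB lists the 6 genes with the best-ranked tumor site. Alternatives covered the assignment distance, matching distance, score minimum, list length, left-out libraries, the replicate number as a block, and grouping by the words in the peak names. Figures were drawn with matplotlib 3.10.9.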

Additional observations from a re-analysis of the deposited data

Results flagged for a closer look

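The lists also hold summits on chromosome 4 scaffolds outside the main assembly, which no comparison above used. The tumor H3K27ac library had 51 of them, against 7 in the normal H3K27ac library, and they made up 0.0760% of the tumor file, against 0.0309% of the normal file. The YAP libraries had 16 and 21 in tumor 1 and tumor 2, against 2 and 3 in normal 1 and normal 2. As a share of the file the YAP libraries ran the other way, at 0.0417% and 0.0389% in tumor 1 and tumor 2, against 0.119% and 0.137% in normal 1 and normal 2. The H3K27ac result stands out because a signal in unused data was above its level in the normal library. Whether these scaffolds hold further Ccl21 copies was not tested.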

How the results depend on the processing

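Of 86 recomputed values, 70 kept their direction and their side of the threshold, or, for counts, stayed within 1.5 times; the YAP group tests cannot pass a threshold in any setting, so this says nothing about their stability. With every YAP list at the length of the shortest, the log2 ratio of YAP summits turned to -0.50 and the difference in share to -0.0302 points (exact permutation p = 1.0 for both, n = 2 each), and 0 genes had a tumor site. Only 1 summit is left there, so the sign rests on it. With gene ends within 10 kb the H3K27ac log2 ratio turned to -0.32. With the full lists it was 1.73, which kept its direction but was not counted among the 70. The cause of the turn at 10 kb was not tested. A score of at least 10 left 4 genes with a tumor site, 4 sites with H3K27ac, and 3 tumor and 2 normal genes with a marked end. Matching within 100 bp left 7 sites with H3K27ac, a limit of 500 bp to a gene end left 4 genes marked in the tumor, and dropping the copy-variable cluster left 5.

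With 1 replicate left out no pair can form, so summits of the single remaining library were counted. Genes with a tumor YAP summit then ranged from 20 to 26, and genes with a normal YAP summit stood at 1. A tumor H3K27ac summit lay within 1 kb of 15 of 34 summits of tumor 1 and 24 of 68 of tumor 2. The main result was 13 of 26 sites. Leaving out 1 library, the log2 ratio ranged from 4.13 to 5.11 and the difference in share from 0.0353 to 0.0726 points. With tumor 2 and normal 1 alone, chosen after the data were seen, these were 5.11 and 0.0657. With peak-name words in place of the labels they were 0.49 and 0.0118 (exact permutation p = 1.0, n = 2 each). Both kept their direction and were counted among the 70, although the log2 ratio had been 4.62. The replicate block left both values at 4.62 and 0.0539 with an exact permutation p = 0.5, the smallest that 2 pairs allow, and nothing in the labels says that equal numbers mark a shared animal or day.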

Other observations

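Ligand genes of the same family lie outside the naming rule. Pf4 and Ppbp, platelet chemokine genes between Cxcl5 and Cxcl3, had 1 and 0 H3K27ac summits in the full tumor list, against 0 and 0 in the normal library, and of the YAP libraries Ppbp had 1 summit in tumor 2 alone. The annotation lists Ccl21b and Ccl21c among the synonyms of 2 further genes on chromosome 4, Gm13304 and Gm10591. They had 5 and 4 H3K27ac summits in the full tumor list, against 1 and 1 in the normal library, and 0 at equal length. Of the YAP libraries, tumor 1 had 1 and 0 at them and tumor 2 had 1 and 1, against 0 and 0 in normal 1 and 1 and 0 in normal 2.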
